A study of Mus musculus with 9 samples.

Results

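The genes described here are 10 transcription factor genes of the immediate early response and of activator protein 1 (AP-1): Fos, Fosb, Fosl1, Fosl2, Jun, Junb, Jund, Egr1, Nr4a1 and Atf3. They were taken by symbol from the deposited expression table, where all 10 were found among 13336 genes. Expression was measured by stranded mRNA sequencing in 9 libraries of cultured mouse tracheal gland cells that the labels call myoepithelial: 5 Lef1KI libraries and 4 WT libraries. Every library was a pool of 3 to 5 mice carrying ACTA2-CreERT2, a tamoxifen-inducible Cre driven by the promoter of Acta2, a contractile actin gene active in myoepithelium. Lef1KI mice also carried Lef-1KI+/+ and WT mice carried ROSA-TG, and in both groups tamoxifen was given daily over 5 days ahead of the harvest. Cells of both groups were grown to passage 1 in airway medium with 10 µM Y-27632 and 1 µM each of DMH-1, A83-01 and CHIR 99021, on plastic treated with laminin-rich medium conditioned by 804G cells. WT libraries were sorted as GFP+ and Lef1KI libraries as GFP-, so gate and genotype cannot be told apart. No source used here gives the age of the mice.

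Immediate early genes are transcribed within minutes of a growth factor, stress or mechanical stimulus from factors already present in the cell, and most of their transcripts decay quickly. FOS proteins dimerize through a leucine zipper with JUN proteins, JUN proteins also pair with each other, and ATF3 joins the same network; the dimers bind AP-1 or cyclic AMP response elements (CRE). EGR1 is a zinc finger factor and NR4A1 an orphan nuclear receptor. In stratified and airway epithelia AP-1 is known for its part in wound repair, proliferation and squamous differentiation.

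Promoter windows from RefSeq (GRCm38.p6, the assembly called mm10, from 250 bases before to 50 after the start of transcription) were matched for 8 of the 10 members, all but Fosl1 and Egr1. The 100 bases before the start are shown for the 4 members with the largest higher values in Lef1KI and for Jun, the member with the largest lower value. Sequences run 5′ to 3′ on the gene's strand. Capitals mark the core of the CRE, TGACG, which reads CGTCA where it lies on the opposite strand, and in Jun the variant site TGACATCA.
Fos: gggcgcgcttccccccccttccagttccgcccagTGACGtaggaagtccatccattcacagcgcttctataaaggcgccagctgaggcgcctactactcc
Fosb: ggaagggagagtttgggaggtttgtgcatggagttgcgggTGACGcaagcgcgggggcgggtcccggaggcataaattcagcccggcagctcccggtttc
Nr4a1: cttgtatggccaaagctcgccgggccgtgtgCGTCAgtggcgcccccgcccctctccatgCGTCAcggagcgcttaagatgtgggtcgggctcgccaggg
Atf3: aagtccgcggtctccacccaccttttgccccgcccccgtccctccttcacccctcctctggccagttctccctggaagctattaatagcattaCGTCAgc
Jun: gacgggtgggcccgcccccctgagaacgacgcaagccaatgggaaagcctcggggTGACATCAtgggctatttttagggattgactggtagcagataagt
These stretches lie at chr12:85473790-85473889 (plus strand, Fos), chr7:19310046-19310145 (minus strand, Fosb), chr15:101266746-101266845 (plus strand, Nr4a1), chr1:191183334-191183433 (minus strand, Atf3) and chr4:95052223-95052322 (minus strand, Jun). In GENCODE M21 the stretches of Nr4a1 and Atf3 fall inside longer transcripts of their own genes, and that of Jun falls inside the divergent gene Junos. In the same annotation 7 bases of the Atf3 stretch and up to 6 of the Fosb stretch belong to exons of their own genes.

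Over the whole 300-base windows, TGACG on either strand was found in 5 of the 8 matched members (Fos, Fosb, Junb, Nr4a1 and Atf3) and in 20.8% of the 32851 promoters in the table. The Nr4a1 window held 4 copies, and 4 or more were found in 0.231% of promoters. EGR sites, written GCGGGGGCG or GCGTGGGCG, were found in the windows of Fosb, Fosl2 and Nr4a1 and in 3.47% of all promoters. The variant TGACATCA was added to the search for the sake of Jun, so its presence there is no finding. It was found in 3.62% of promoters. None of the 8 windows held the full CRE TGACGTCA (1.79% of promoters, and itself a TGACG match), the AP-1 site TGACTCA (5.20%), the TCF/LEF sites CTTTGAT or CTTTGAA (8.65%) or a CArG box (1.63%), the site of serum response factor. These are matches of letters in a short window and were not tested as binding sites.

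Values are in TPM, RSEM's length-corrected share of all transcripts, so levels of different genes can be set side by side, and read depth cannot be recovered from them. The libraries' median log2(TPM + 1) ranged from 3.58 to 3.97. Lef1 had 139 to 312 TPM in the Lef1KI libraries and 0.38 to 0.55 TPM in the WT libraries, as the labels state. Markers of other cell types moved with the group: 15 of 16 fibroblast and stromal markers rose in Lef1KI, Col6a3, Col1a1 and Col5a1 among them, and their summed level was 1628 to 4482 TPM in Lef1KI against 407 to 1107 TPM in WT. Of 11 measured endothelial markers 7 rose, Ramp2, Plvap and Eng among them, with sums of 47.9 to 136 against 23.6 to 33.9 TPM. Esam was the only 1 with a negative difference (−0.74, 2.15 ± 0.895 against 5.24 ± 4.10 TPM, limma adjusted p 0.321). Flt1, Egfl7 and Tek had positive differences that did not pass (limma adjusted p 0.0813, 0.112 and 0.926). Of 12 listed leukocyte markers 5 were measured, Ptprc not among them. Lyz2 and Coro1a rose, Coro1a only from 0.130 ± 0.0956 to 0.544 ± 0.160 TPM and not under either rescaling of the libraries (limma adjusted p 0.174 and 0.132). Cd68, the most abundant of the 5, had lower values in Lef1KI (93.7 ± 82.1 against 179.6 ± 60.9 TPM, difference −1.18, limma adjusted p 0.136), and the sums overlapped (58.6 to 244 against 111 to 260 TPM). Of 3 measured luminal and ciliated markers Elf3 fell. Airway basal markers were abundant in both groups (22477 to 26271 and 17929 to 25100 TPM), with Sfn and Cdh3 of 11 higher and Ngfr lower. The Cdh3 call held in 3 of 9 fits without a library and under neither rescaling (limma adjusted p 0.255 and 0.194). Of 11 myoepithelial contractile markers Mylk rose and Synm fell, the Mylk call holding in 2 of 9 fits without a library and under neither rescaling (limma adjusted p 0.108 and 0.116), with overlapping sums (445 to 1056 and 512 to 883 TPM). Acta2, whose promoter drives the Cre, stood at 62.3 ± 31.2 TPM in Lef1KI and 129 ± 41.0 TPM in WT (limma adjusted p 0.0834). In bulk RNA, a change in the share of a cell type and a change in RNA per cell cannot be told apart. The part of these other cell types in the members' differences was not tested.

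Of the 10 members, Atf3 and Nr4a1 rose in Lef1KI and none fell. Atf3, a stress-induced factor, was 64.5 ± 3.71 TPM in WT (SD, n = 4) and 108 ± 18.5 TPM in Lef1KI (SD, n = 5), and Nr4a1 was 11.7 ± 2.15 and 23.3 ± 8.29 TPM. Fos and Fosb had higher values in 4 of the 5 Lef1KI libraries without passing the threshold, and the Jun family, Fosl1, Fosl2 and Egr1 did not pass it either. The test was limma's moderated test over all 13336 genes with Benjamini-Hochberg adjustment, called at an adjusted p under 0.05, and each difference is the Lef1KI mean less the WT mean in log2(TPM + 1). The 2 called members are 20.0% of the 10, beside 7.97% of all genes called in either direction, 6.73% called higher and 1.24% called lower. A further 2 members, Fos and Jun, had an unadjusted p under 0.05, making 4 of 10, beside 23.8% of all genes. Of the 10 members 7 had positive and 3 negative differences, with a median of 0.29 beside 0.14 over all genes. Every member passed the authors' filter in each group, where the mean had to reach 3 SD, the closest being Fosb in Lef1KI at 3.34 SD.

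**Figure D1:**
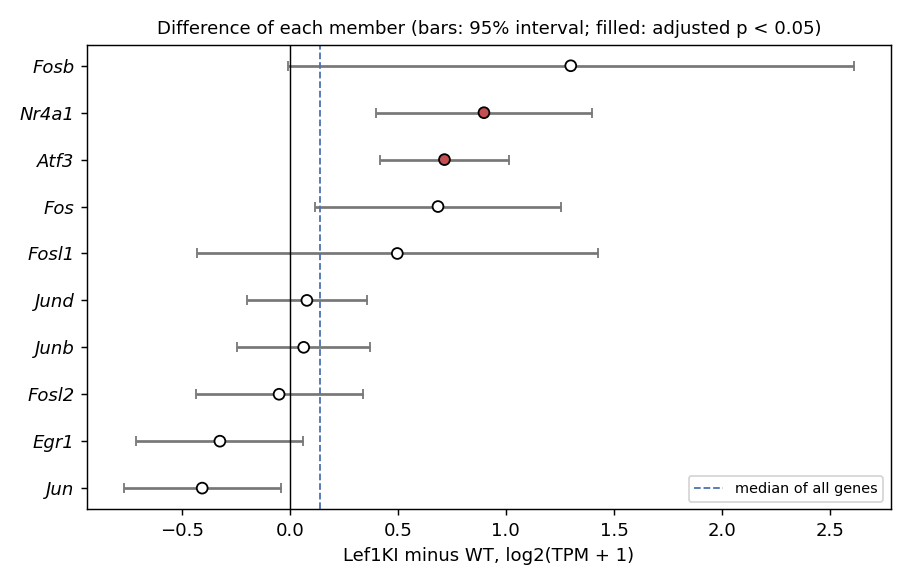
Difference of each of the 10 members (Lef1KI minus WT, log2(TPM + 1)) from limma, with bars for the 95% interval; filled points passed an adjusted p of 0.05 and the dashed line is the median of all genes, 0.14. Atf3 and Nr4a1 are filled, and the widest bar is that of Fosb.

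Fos, the founding partner of JUN in AP-1 (ENSMUSG00000021250, chromosome 12 from 85473890 to 85477273, plus strand), had 121, 199, 210.4, 353 and 290.4 TPM in Lef1KI A to E. WT A, B, D and E had 134, 122, 135 and 156 TPM. Of the Lef1KI libraries 4 lay above every WT library, and Lef1KI A was the lowest of all 9. The difference was 0.69 ± 0.26 (SE, limma adjusted p 0.14, 95% interval 0.12 to 1.25, exact two-sided permutation p 0.0794, where 0.0159 is the smallest that 5 against 4 libraries allow). Without Lef1KI A the difference was 0.90 and passed (limma adjusted p 0.0142). Leaving out any other single library gave differences from 0.52 to 0.75 that did not pass.

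Fosb, a close paralog of Fos (ENSMUSG00000003545, chromosome 7 from 19302696 to 19310051, minus strand), had 4.16, 26.05, 28.9, 68.8 and 23.2 TPM in Lef1KI A to E and 6.44, 5.90, 13.4 and 10.05 TPM in WT A, B, D and E. Again Lef1KI A was the lowest of the 9 libraries and the other Lef1KI libraries lay above every WT library. Its highest Lef1KI value was 16.5 times its lowest, and its SD on the log2 scale in Lef1KI was at the 99.85th percentile of all genes. The difference of 1.30 ± 0.59 (SE) was the largest of any member but did not pass (limma adjusted p 0.214, exact permutation p 0.127). Without Lef1KI A it was 1.85 (limma adjusted p 0.0119).

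Lef1KI A, which ends both calls, also differed in summed marker levels. Its leukocyte markers summed to 244 TPM, nearly all from Cd68, against 58.6 to 83.6 TPM in the other Lef1KI libraries and 111 to 260 TPM in WT. Its heat shock and dissociation genes summed to 10388 TPM, the highest of the 9. Their mean log2(TPM + 1), however, was 7.22, below that of Lef1KI B, C and E (7.23, 7.32 and 7.39). Its contractile markers summed to 445 TPM and its luminal and ciliated markers to 115 TPM, each the lowest of the 9. The part of these levels in Fos and Fosb was not tested.

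Fosl1, which encodes the FRA-1 protein of migrating and wounded epithelia (ENSMUSG00000024912, chromosome 19 from 5447547 to 5455946, plus strand), had 43.1, 29.3, 65.3, 15.3 and 74.9 TPM in Lef1KI A to E. WT A, B, D and E had 17.5, 33.99, 24.6 and 40.1 TPM. The groups overlapped widely, and Lef1KI D, the highest library for Fos and Fosb, was the lowest of all 9 for Fosl1. The difference was 0.50 ± 0.42 (SE, limma adjusted p 0.486, 95% interval −0.43 to 1.42). Single libraries moved it widely, to 0.27 without Lef1KI E, 0.32 without Lef1KI C, 0.29 without WT A and 0.83 without Lef1KI D, and library weights gave 0.057. Of the 2033 exonic bases of Fosl1, 1163 also belong to Ccdc85b on the other strand. The library kit marks strand, but no source used here says whether the counting used it, so reads of the pair cannot be told apart with certainty. The level of Ccdc85b was 15.4 ± 4.22 TPM in WT and 18.9 ± 4.19 TPM in Lef1KI. With group means subtracted, r was 0.29 for Fosl1 and Ccdc85b.

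Fosl2, which encodes FRA-2 (ENSMUSG00000029135, chromosome 5 from 32135801 to 32157842, plus strand), had 168, 115, 96.0, 87.85 and 114 TPM in Lef1KI A to E and 129.7, 118, 99.6 and 124 TPM in WT A, B, D and E. Lef1KI A, lowest for Fos and Fosb, was here the highest library, and Lef1KI D the lowest. The group means were 116 ± 31.3 and 118 ± 13.1 TPM, a difference of −0.05 ± 0.17 (SE, limma adjusted p 0.885, 95% interval −0.44 to 0.34) whose sign changed without Lef1KI C or D.

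**Figure D2:**
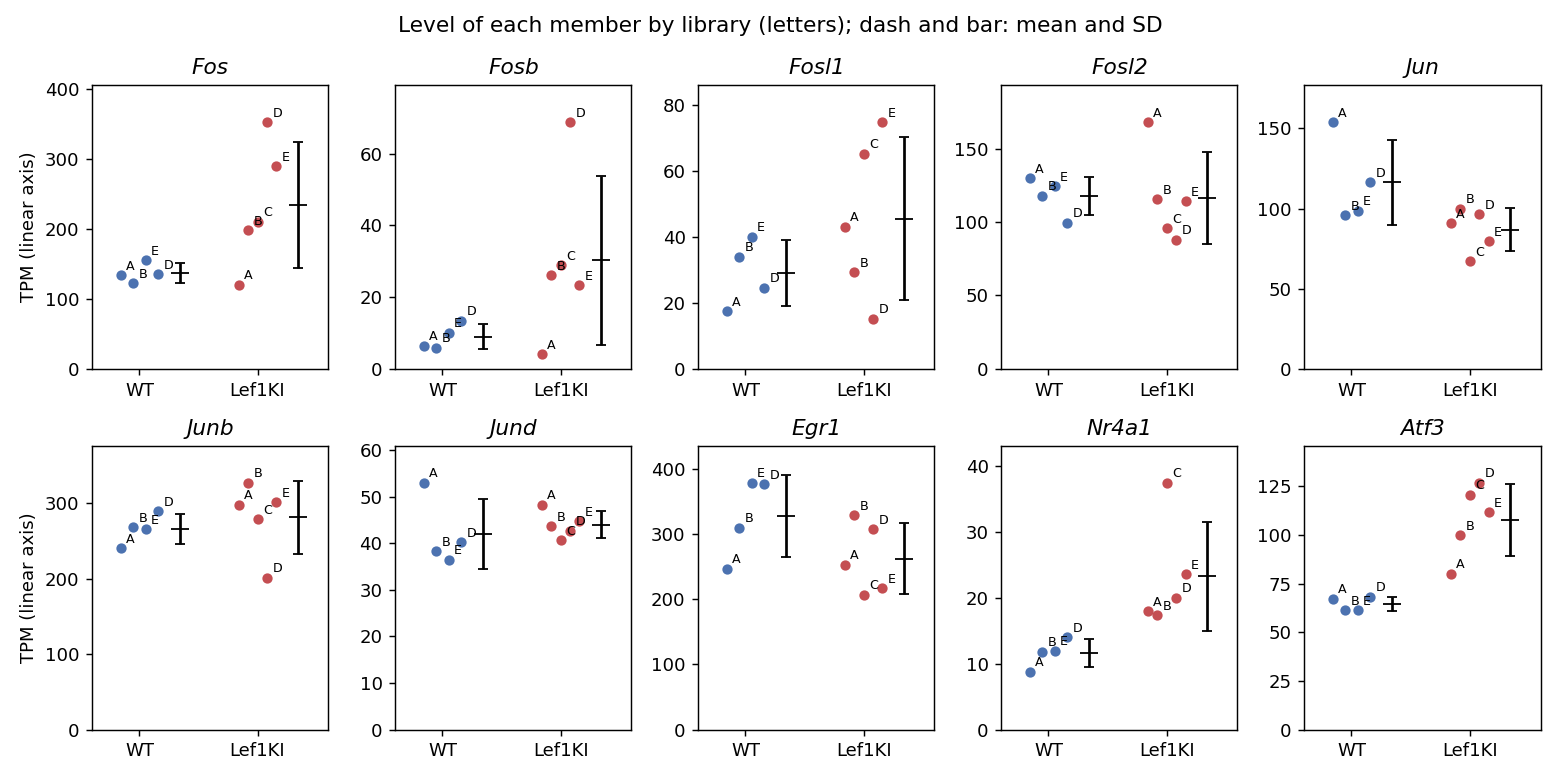
TPM of each member by library, on linear axes from 0, with WT in blue, Lef1KI in red, letters for libraries, and the mean and SD of each group beside its points. Lef1KI A sits at the bottom of the Fos and Fosb panels and at the top of the Fosl2 panel, and the groups are apart only for Nr4a1 and Atf3.

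Jun, the main DNA-binding partner of FOS (ENSMUSG00000052684, chromosome 4 from 95049034 to 95052222, minus strand), had 91.1, 100.1, 67.3, 96.5 and 79.8 TPM in Lef1KI A to E and 154, 96.0, 117 and 98.8 TPM in WT A, B, D and E. All 5 Lef1KI values lay below the WT mean, and 3 of them below every WT library. The difference was −0.40 ± 0.16 (SE, limma adjusted p 0.169, 95% interval −0.77 to −0.04, exact permutation p 0.0794), and no alternative brought it past the threshold. It was −0.26 without WT A, the highest library, and −0.20 with library weights. Of its 3189 exonic bases 232 are shared with Junos on the other strand, which was at 0.738 ± 0.288 TPM in Lef1KI and 0.343 ± 0.253 TPM in WT. With group means subtracted, r was 0.47 for Jun and Junos.

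Junb, often an antagonist of JUN (ENSMUSG00000052837, chromosome 8 from 84974484 to 84978718, minus strand), was among the most abundant members. It had 298, 327, 278, 201 and 301 TPM in Lef1KI A to E and 240.2, 268, 289.55 and 265 TPM in WT A, B, D and E. Only Lef1KI D lay below the WT range. The difference was 0.06 ± 0.14 (SE, limma adjusted p 0.798, 95% interval −0.24 to 0.37). Jund, the member least dependent on stimulation (ENSMUSG00000071076, chromosome 8 from 70698949 to 70700616, plus strand), had 48.3, 43.7, 40.65, 42.7 and 44.8 TPM in Lef1KI and 53.0, 38.3, 40.25 and 36.4 TPM in WT A, B, D and E. Every Lef1KI value lay within the WT range, and its SD in Lef1KI was at the 4.99th percentile of all genes. Its difference was 0.08 ± 0.13 (SE, limma adjusted p 0.721), and the signs of both Junb and Jund turned negative when libraries were rescaled. Jund shares 877 of 1668 exonic bases with the opposite-strand gene Gm11175 (59.5 ± 3.12 TPM in Lef1KI and 60.3 ± 8.43 TPM in WT), and Junb 173 of 2301 with Prdx2. With group means subtracted, r was 0.57 for Jund and Gm11175 and −0.02 for Junb and Prdx2. As for Fosl1, reads of these pairs cannot be told apart with certainty.

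Atf3 (ENSMUSG00000026628, chromosome 1 from 191170296 to 191218039, minus strand) had 80.1, 99.9, 121, 127 and 112 TPM in Lef1KI A to E and 67.2, 61.2, 68.2 and 61.4 TPM in WT A, B, D and E. Each of the 5 Lef1KI libraries lay above each WT library, with Lef1KI A again the lowest of its group. That gave a difference of 0.72 ± 0.14 (SE) with a limma adjusted p of 0.00889 and an exact permutation p of 0.0159. It passed in 9 of 9 fits that left out a library, with differences from 0.65 to 0.82.

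Nr4a1 (ENSMUSG00000023034, chromosome 15 from 101254269 to 101274795, plus strand) had 18.0, 17.4, 37.5, 20.0 and 23.6 TPM in Lef1KI A to E and 8.82, 11.8, 14.0 and 12.01 TPM in WT A, B, D and E. The groups did not overlap, and Lef1KI C stood highest. The difference was 0.90 ± 0.23 (SE) with a limma adjusted p of 0.035 and an exact permutation p of 0.0159. Of 9 fits with 1 library left out, 4 kept this call; it was lost without Lef1KI D or E or without WT A, B or E, where the differences were 0.94, 0.88, 0.78, 0.91 and 0.92 and the limma adjusted p 0.0578 to 0.0886. Groups did not overlap for these 2 members, 20.0% of the 10, beside 11.9% of all genes. Fibroblast and endothelial marker sums did not overlap between the groups either, as given above.

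Egr1 (ENSMUSG00000038418, chromosome 18 from 34859823 to 34864984, plus strand) had 253, 329, 207, 307 and 217 TPM in Lef1KI A to E and 247, 310.0, 377 and 379 TPM in WT A, B, D and E. Of the 5 Lef1KI values 4 lay below the WT mean, while WT A and WT B lay within the Lef1KI range. The difference was −0.32 ± 0.18 (SE, limma adjusted p 0.288, 95% interval −0.71 to 0.06).

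By level, Junb (281 ± 47.95 TPM), Egr1 (263 ± 53.9 TPM) and Fos (235 ± 89.6 TPM) came first in Lef1KI, and Egr1 (328 ± 62.8 TPM), Junb (266 ± 20.2 TPM) and Fos (137 ± 13.9 TPM) in WT. Fosl2, Atf3, Jun, Fosl1, Jund, Fosb and Nr4a1 followed in Lef1KI, and each neighbour in that order overlapped the next. In WT the order went on with Fosl2, Jun, Atf3, Jund, Fosl1, Nr4a1 and Fosb. There, library ranges were separate between Junb and Fos, between Jun and Atf3, between Atf3 and Jund and between Fosl1 and Nr4a1, and overlapped between the other neighbours.

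The 4 genes of the Fos family summed to 336, 369, 401, 525 and 503 TPM in Lef1KI A to E and to 288, 280.15, 273 and 330.2 TPM in WT A, B, D and E. All Lef1KI sums lay above all WT sums, Lef1KI A by little, where groups did not overlap for 11.9% of all genes. The shifts that trimmed-mean scaling subtracts were −0.050 for Lef1KI A and −0.075 for WT E in log2. Rescaling thus raises WT E by more and all but closes that small gap. The separation of Lef1KI A from WT E in this sum therefore depends on the scaling. The difference of the sums was not tested. The makeup of that sum varied more in Lef1KI: Fos gave 35.9% to 67.3% of it there and 43.7% to 49.6% in WT, and Fosl2 gave 16.7% to 50.04% and 36.5% to 45.03%. The Jun family summed to 340.3 to 471 TPM in Lef1KI and 401 to 447 TPM in WT, with Junb supplying 59.1% to 72.1% and 53.7% to 66.6%. The ratio of the Fos to the Jun sum was 0.768, 0.785, 1.04, 1.54 and 1.18 in Lef1KI A to E and 0.612 to 0.824 in WT.

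**Figure D3:**
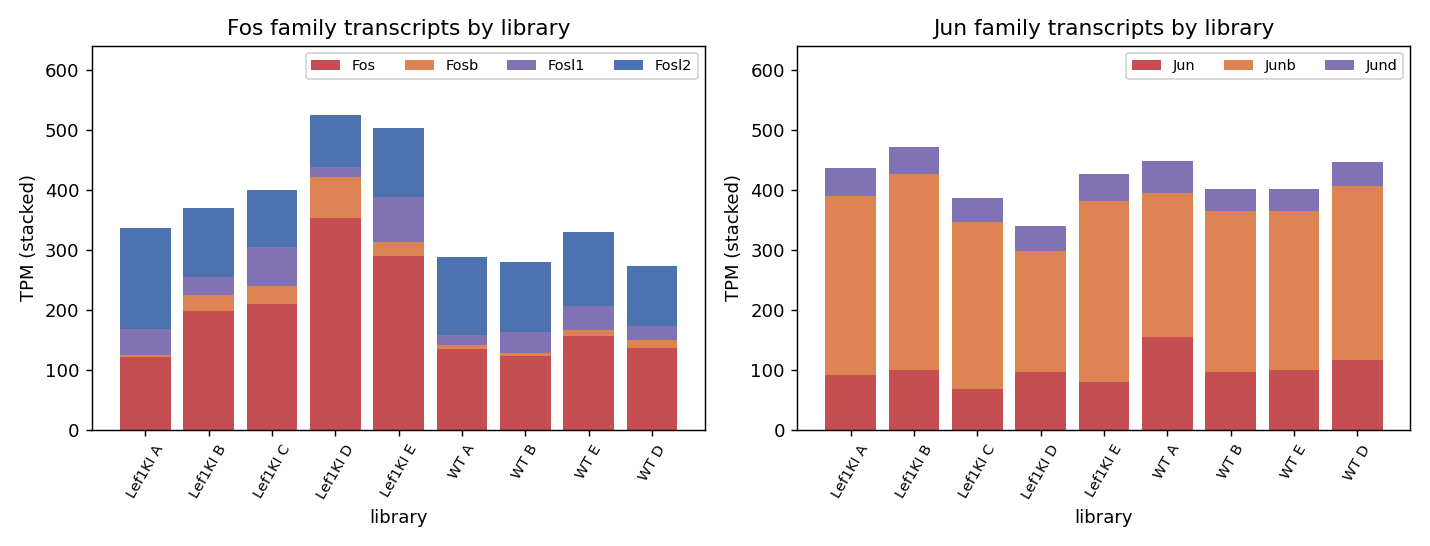
Stacked TPM of the Fos family (left) and the Jun family (right) in each library. Fos family stacks reach 336 to 525 TPM in Lef1KI and 273 to 330.2 TPM in WT, and the blue Fosl2 part is largest in Lef1KI A.

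To ask whether the members rose and fell together, each library's deviation from its group mean was correlated over the 9 libraries for all 45 pairs, with exact permutation of 1 gene of the pair within groups (2880 orders, two-sided on the size of r) and Benjamini-Hochberg adjustment over the 45 pairs. They did not move as 1 set: 18 pairs had positive and 27 negative r, with a median of −0.11, beside 0.093 over all pairs of the 13336 genes. No pair passed the adjusted threshold (smallest adjusted p 0.122), while 9 had an unadjusted exact p under 0.05. The share of all gene pairs under that unadjusted p was not computed, so the 9 are only described below. With Spearman's rho 0 pairs passed and 6 had an unadjusted p under 0.05. An r beyond 0.8 in size was found for 5 of the pairs, 11.1%, beside 5.30% of all gene pairs.

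Those 9 included the 3 pairs among Fos, Fosb and Atf3, with positive r, and the pairs of Fosl2 with Fosb and with Atf3, with negative r. Pearson's r was 0.88 for Fos and Fosb (exact p 0.0208, adjusted 0.156; rho 0.68, exact p 0.076). It was 0.89 for Fosb and Atf3 (exact p 0.0128, adjusted 0.122; rho 0.80, exact p 0.0184) and 0.84 for Fos and Atf3 (exact p 0.049, adjusted 0.245; rho 0.73, exact p 0.0813). Fosl2 gave −0.94 with Fosb (exact p 0.00417, adjusted 0.122; rho −0.75, exact p 0.0361) and −0.92 with Atf3 (exact p 0.00833, adjusted 0.122; rho −0.80, exact p 0.0285). Fos and Fosl2 were not among the 9 (r −0.76, exact p 0.0722, adjusted 0.325; rho −0.43, exact p 0.315), and r was 0.24 without Lef1KI A and D. These relations rested largely on Lef1KI A and Lef1KI D, the libraries farthest from the median of the first-named member: without both, r fell to 0.10 for Fos and Fosb, 0.13 for Fos and Atf3 and 0.29 for Fosb and Atf3. It stayed at −0.68 for Fosb and Fosl2 and at −0.59 for Fosl2 and Atf3. Within Lef1KI alone r was 0.91 for Fos and Fosb, 0.89 for Fos and Atf3 and 0.93 for Fosb and Atf3. Within WT alone these were 0.54, −0.11 and 0.38. For Fosl2, r was −0.97 with Fosb and −0.98 with Atf3 in Lef1KI, and −0.71 and −0.40 in WT. Of all 45 pairs, 26 had the same sign in both groups.

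Of the other 4 pairs, 3 involved Jun. Jun ran against Fosl1 (r −0.77, exact p 0.0125, adjusted 0.122; rho −0.82, exact p 0.0118), and r was −0.96 without Lef1KI D and E. Within the groups alone r was −0.77 over the 5 Lef1KI libraries and −0.96 over the 4 WT libraries. Jun also ran against Nr4a1 (r −0.79, exact p 0.0135, adjusted 0.122; rho −0.82, exact p 0.0208) and with Jund (r 0.79, exact p 0.0288, adjusted 0.185; rho 0.75, exact p 0.0326), but without Lef1KI C and WT A these fell to −0.24 and 0.12. Jund and Nr4a1 gave −0.58 (exact p 0.0486, adjusted 0.245; rho −0.60, exact p 0.0979), and −0.38 without Lef1KI A and WT A. Egr1 and Junb appear in none of the 9 pairs.

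**Figure D4:**
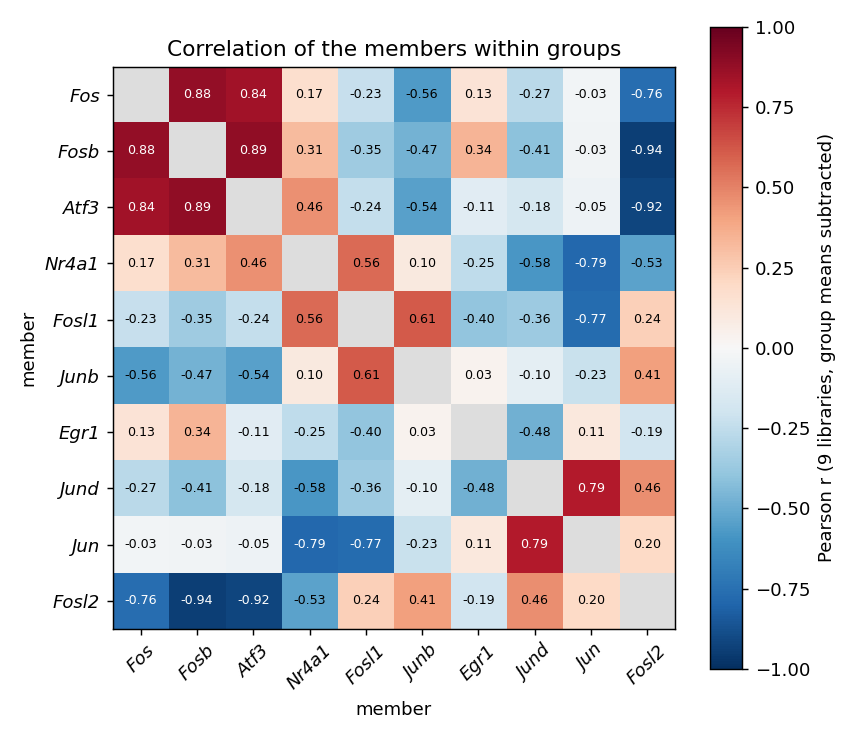
Pearson's r of each pair of members over the 9 libraries after subtracting group means, from −1 (blue) to 1 (red). The block of Fos, Fosb and Atf3 holds r of 0.84 to 0.89 and the Fosl2 row holds −0.94 with Fosb.

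With group means left in, 4 pairs passed an adjusted exact p of 0.05 over the 9 libraries: Fos with Fosb (r 0.92, exact p 0.000408, adjusted 0.0184; rho 0.93, exact p 0.00075), Nr4a1 with Atf3 (r 0.84, adjusted 0.0389), Jun with Nr4a1 (r −0.88, adjusted 0.0389) and Fos with Atf3 (r 0.87, adjusted 0.0389). The last 3 hold a gene whose groups do not overlap, so their r over all libraries includes the group difference. For Fos and Fosb the groups overlapped, but 4 of the 5 Lef1KI libraries lay above every WT library for both genes. Their r over all libraries thus includes the group difference too. With group means subtracted it did not pass (r 0.88, adjusted exact p 0.156). The same Lef1KI A and D libraries were the extremes.

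**Figure D5:**
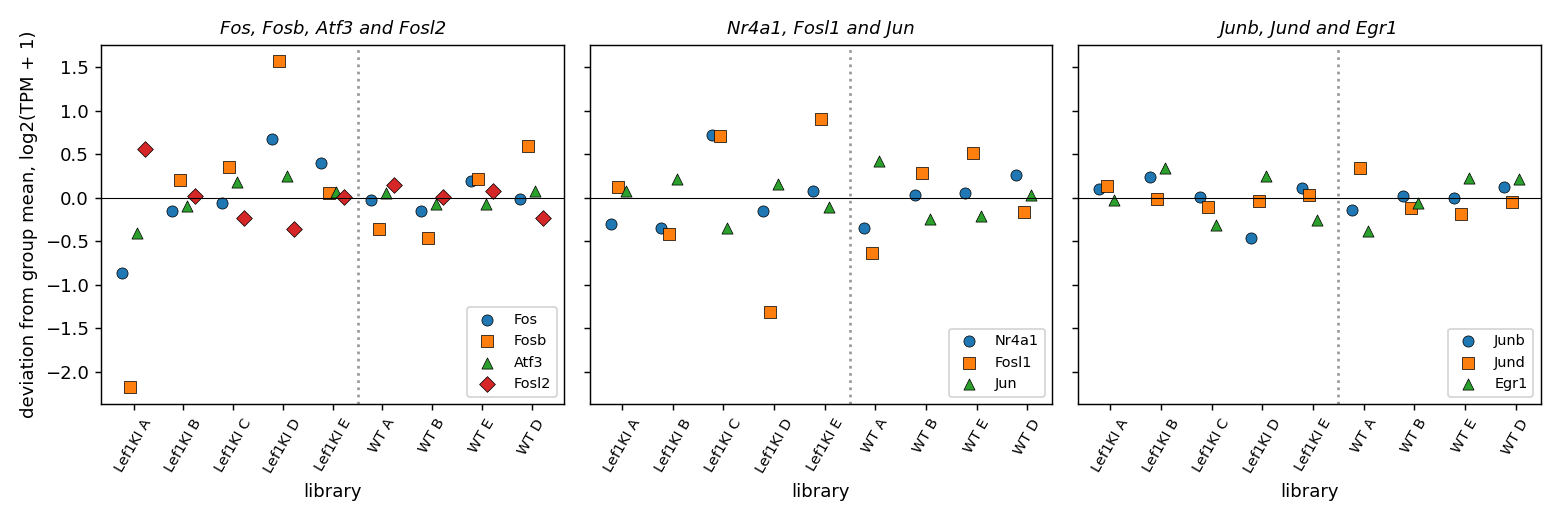
Deviation of each library from its group mean, in log2(TPM + 1), for 3 sets of members; libraries have no order, and the dotted line parts Lef1KI from WT. In the left panel Lef1KI A is low for Fos, Fosb and Atf3 and high for Fosl2, and Lef1KI D is the reverse.

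Outside the member list, the genes most like each member in group-centred r over the 9 libraries were searched among genes with a mean log2(TPM + 1) of at least 3. With 9 libraries and 8175 genes such r are high by selection and are given as a description. Fos was closest to Nek4 (r 0.97), Ccdc53 (0.93) and Ptprz1 (0.92), and Fosb to Mterf4 (0.97), Loh12cr1 (0.96) and Phospho2 (0.95). Atf3 was closest to Marveld1 (0.98), Hnrnph2 (0.97) and Zscan21 (0.97), and Fosl2 to Fam96b (0.97), Clptm1 (0.97) and Fam110c (0.97). Fosl1 was closest to Sh3rf1 (0.97), Ccdc86 (0.97) and Kitl (0.97), the gene of stem cell factor. Among the genes closest to Jun were Cebpa (0.94), another leucine zipper factor, and Mpzl1 (0.92). Among those closest to Nr4a1 were Osbpl11 (0.96) and Mterf3 (0.95). Egr1 was closest to Dguok (0.93), Chmp7 (0.92) and Slc26a2 (0.92), and Jund to Gins2 (0.97), Ndufa13 (0.96) and Dlgap5 (0.96). Junb was closest to Ddx19b (0.90), the epidermal growth factor receptor ligand gene Areg (0.89) and Snx17 (0.88), and these r dropped to between 0.30 and 0.45 without Lef1KI D.

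Among 28 measured leucine zipper partners and relatives, 3 rose and none fell (10.7%, beside 7.97% of all genes; median difference 0.23). The gene of C/EBP-delta, Cebpd, an acute phase factor, rose from 50.9 ± 4.54 to 90.0 ± 16.8 TPM (difference 0.80, limma adjusted p 0.00591, 9 of 9 fits without a library). Cebpb rose from 23.1 ± 2.14 to 35.6 ± 5.64 TPM (0.60, limma adjusted p 0.0266, 5 of 9 fits) and the repressor gene Bach2 from 0.207 ± 0.0670 to 1.16 ± 0.775 TPM (0.78, limma adjusted p 0.0357, 4 of 9 fits). Both of these calls were lost when libraries were rescaled. Jdp2, an AP-1 repressor named here after its value was seen, was at 34.4 ± 7.74 TPM in Lef1KI and 21.3 ± 4.69 TPM in WT (difference 0.67, limma adjusted p 0.0667).

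Of 48 other immediate early genes, 3 rose and none fell (6.25%, median difference −0.05, with 20 positive and 28 negative). With each library centred on its median the count was 3 higher and 4 lower, the lower ones, named after their values were seen, being Arc (−1.24, limma adjusted p 0.0478), Id1 (−1.08, 0.0462), Id2 (−0.67, 0.0428) and Hes1 (−0.90, 0.0489). With trimmed-mean scaling, the other rescaling, 3 were called, and these 4 did not pass (limma adjusted p 0.0505, 0.0553, 0.0582 and 0.0583). Klf2, a flow-responsive zinc finger factor of endothelium, rose from 0.432 ± 0.15 to 3.09 ± 1.09 TPM (1.48, limma adjusted p 0.00151), beside the 7 endothelial markers that rose. Id3, an inhibitor of helix-loop-helix factors, rose from 40.6 ± 15.4 to 83.6 ± 16.2 TPM (1.07, limma adjusted p 0.0128), and the chemokine gene Ccl2 rose by 1.91. All 3 calls held in 9 of 9 fits without a library. Among 23 genes of feedback on MAP kinases and of mRNA decay, the Sprouty gene Spry4 rose from 0.938 ± 0.260 to 2.57 ± 0.832 TPM (0.86, limma adjusted p 0.0183, 7 of 9 fits) and Dusp4, which encodes a nuclear phosphatase of MAP kinases, fell from 11.3 ± 4.11 to 4.06 ± 1.75 TPM (−1.27, limma adjusted p 0.0255, 3 of 9 fits). That is 8.70% of the list, with a median of 0.07. Centring libraries on their median ended the Spry4 call (limma adjusted p 0.0572) and called Dusp2 lower (−0.68, limma adjusted p 0.0376; named after its value was seen), so that 2 were lower and none higher.

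Of 40 upstream kinases and factors, Mapk8ip1, the scaffold gene JIP1 of the JUN kinase pathway, rose from 1.38 ± 0.238 to 3.54 ± 0.721 TPM (0.92, limma adjusted p 0.00398, 9 of 9 fits). Mapk3, the gene of ERK1, fell from 101 ± 12.1 to 67.8 ± 12.4 TPM (−0.58, limma adjusted p 0.0302, 2 of 9 fits). These are 5% of the list, whose median was 0.16. Of 35 genes known as AP-1 targets 3 rose (8.57%, median 0.15): Vim, also a mesenchymal filament gene, from 72.2 ± 11.2 to 217 ± 87.6 TPM (1.496, limma adjusted p 0.00518, 9 of 9 fits), the stromelysin gene Mmp3 from 120.1 ± 52.1 to 343 ± 127 TPM (1.58, limma adjusted p 0.0291, 6 of 9 fits), and Il1rn from 20.9 ± 6.25 to 46.5 ± 17.3 TPM (1.09, limma adjusted p 0.0483, 1 of 9 fits). Rescaling the libraries ended the Il1rn call (limma adjusted p 0.0852 and 0.0883). The fibroblast markers, 15 of 16 higher, rose in the same group, and their part in the values of Vim and Mmp3 was not tested.

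Heat shock and dissociation genes, which cell sorting can raise together with immediate early genes, gave 0 of 20 past limma's threshold, beside 7.97% of all genes. At an unadjusted p under 0.05 there were 2 of the 20, beside 23.8% of all genes. These were Hspa1a, lower (−0.36, limma adjusted p 0.194), and Dnaja1, higher (0.42, limma adjusted p 0.177). Of the 20 differences 15 were positive and 5 negative, with a median of 0.135 beside 0.141 over all genes. The summed level of the 20 was 8760 to 10388 TPM in Lef1KI and 8427 to 9491 TPM in WT. The part of sorting in the members' values was not tested. No alternative fit called any of the 20.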

How the data were processed

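RNA of 5 Lef1KI and 4 WT libraries was analysed. The deposited table holds log2(TPM + 1) values with the authors' log2 group means and SDs. RSEM and mm10 are named in the submitters' processing notes; no source used here gives versions or the strand setting. Columns carry letters that no label ties to a replicate number, and were mapped to groups by name. Where labels name only pools of mice, p-values measure the spread between pools.

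All 13336 genes were fitted with limma 3.58.1 (R 4.3.3, intensity trend in the prior, group as the only term, no further filter), and pairs of members by exact permutation (numpy 2.4.6). Both were tested on simulated data. Named were Lef1, the members, up to 3 called genes per direction from each list (or the 2 with the smallest p), and 3 genes most like each member, of which 2 are not reported here. The members and lists were chosen with earlier results of these data known. Alternatives were 2 scalings, a pseudocount of 0.1, a minimum mean of 1 TPM, other variance priors, library weights, a letter block and leaving out libraries. Positions come from GENCODE M21.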

Additional observations from a re-analysis of the deposited data

Results flagged for a closer look

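A library was singled out where its gap to the nearest library of its group exceeded Dixon's 95% value for that group's range, on the log2 scale. Over the 140 group checks of 70 named genes 7 were found, where chance gives about 1 in 20. None was a member. Areg, one of the genes most like Junb, was at 9.52 TPM in Lef1KI D against 56.4 to 92.1 TPM in the other Lef1KI libraries. Ddx19b was at 8.44 TPM in Lef1KI D against 13.9 to 15.1 TPM. Mmp3 was at 43.8 TPM in WT A against 134 to 161 TPM in the other WT libraries, Plvap at 0.72 against 0.25 to 0.31 TPM, and Dlgap5 at 39.3 against 18.0 to 20.4 TPM. In WT D, Col6a3 was at 12.7 TPM against 7.21 to 7.62 TPM and Fam110c at 59.3 TPM against 92.3 to 98.8 TPM.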

How the results depend on the processing

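TPM keep no read counts, so precision rests on the 9 libraries. The count of changed genes was 1063, from 628 (without WT E) to 1686 (without Lef1KI A) over the fits that left out a library, with 643 without WT B, and 2334 with library weights. Of the members 2 were called, and from 1 to 4 without a library: 4 without Lef1KI A (Fos, Fosb, Nr4a1 and Atf3) and 1 (Atf3) without Lef1KI D or E or WT A, B or E. Library weights also called Fos (limma adjusted p 0.0442). Median centring and trimmed-mean scaling moved the median difference of all genes from 0.141 to −0.018 and −0.0076 and the share of calls that were higher from 84.5% to 64.6% and 66.7%. They left Atf3 and Nr4a1 called and turned Junb to −0.095 and −0.084 and Jund to −0.080 and −0.070. Fosl2 ranged from −0.19 (without Lef1KI A) to 0.042 (without Lef1KI D) over the fits without a library, with 0.010 without Lef1KI C. For pairs of members, the count past the threshold was 0 in all 9 fits without a library and 4 with group means left in; the median r was −0.11 and 0.003 without the 2 farthest libraries of each pair. Among other immediate early genes median centring called 7 (3 higher and 4 lower) in place of 3 (all higher), trimmed-mean scaling 3, and library weights 14. No label pairs the libraries, and same-lettered columns did not deviate together (r −0.26, 0.020, 0.26 and −0.15 for A, B, D and E; only D matched its own letter best). With the letter as a replicate block 484 genes and 0 members were called (limma adjusted p 0.0683 for Atf3 and 0.0704 for Nr4a1) and Fosl2 was 0.010; Lef1KI C, whose letter has no partner, drops out of that fit. The cause of these shifts was not tested.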
